A study of Mus musculus with 8 samples.

Results

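Toll-like receptors are innate immune receptors that bind microbial products and have been studied as possible sensors of saturated fatty acids such as palmitic acid. The 10 genes described here are the receptors Tlr1, Tlr2, Tlr3, Tlr4, Tlr6 and Tlr7, the TLR4 partner Ly96 (MD-2), the adaptors Myd88 and Ticam1 (TRIF), and the inhibitory kinase homologue Irak3 (IRAK-M). They were chosen by their symbols, and each symbol had 1 of the 19301 genes in the expression table. All 10 were among the 11710 genes with enough expression to be tested.

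At the cell surface TLR2 pairs with TLR1 or TLR6 and senses bacterial lipopeptides, while TLR4 senses lipopolysaccharide together with MD-2 and CD14. TLR3 and TLR7 sit in endosomes and sense double-stranded and single-stranded RNA. All of these receptors except TLR3 signal through MyD88, IRAK kinases and TRAF6 to NF-kB, TLR3 signals through TRIF to IRF3, and TLR4 uses both routes. IRAK-M is a brake on the MyD88 route, and tendon cells, like other fibroblast-like cells, are known to express several of these receptors.

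TSCs, tendon stem cells, were primary cells obtained by collagenase digestion of the patellar tendon of C57BL/6J mice. They were cultured for 4 days in low glucose (LG) medium with 5.5 mM glucose and the DMSO vehicle, or in high fat, high glucose (HFHG) medium with raised glucose and 300 µM palmitic acid. Poly(A) RNA was sequenced from 4 libraries of each group. Glucose and palmitic acid were changed together, so that their effects cannot be told apart, and the 4 libraries of a group are biological replicates by the study's methods, while the labels do not say whether they came from separate animals.

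The expression unit was FPKM, the fragments of a gene per kilobase of its length and of sequencing depth, so that levels of different genes can be set side by side. Read numbers were worked out from the steps between the FPKM values. The totals that scaled the FPKM were 34308108 to 37362725 reads per library. At least 99.8% of each total lay on the listed genes, so it need not be all the reads sequenced. The members had between 49 reads (Tlr1) and 3447 reads (Tlr4) in a library. The first principal component held 81.0% of the variance and separated the groups, and the second, with 4.18%, set LG replicate 4 apart from the other 7 libraries. Of 20 macrophage marker genes 18 could be tested, and their summed FPKM ranged from 1967 to 2017 in HFHG and from 2216 to 2311 in LG. The endothelial, lymphocyte and muscle precursor markers were near 0, with summed FPKM of at most 1.33, 0.253 and 0.442, and Cd3e was at 0 in all 4 HFHG libraries. Of these markers only the endothelial Tek had enough expression to be tested, with a mean of 0.800 FPKM in HFHG and 0.547 in LG. The endothelial sums were 1.22 to 1.33 in HFHG and 0.955 to 1.14 in LG. The 14 tendon and mesenchymal markers summed to 5314 to 5378 FPKM in HFHG and to 3686 to 3749 in LG, while within that list the tendon transcription factor Scx was low, at 2.27 ± 0.558 FPKM in HFHG and 1.45 ± 0.336 in LG (SD, n = 4 each).

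Of the 10 members, 6 were lower in HFHG (Ly96, Tlr3, Tlr7, Tlr4, Tlr2 and Myd88), 2 were higher (Irak3 and Ticam1), and 2 (Tlr6 and Tlr1) did not pass the test, an adjusted p below 0.05 in limma. The same threshold called 64.8% of all tested genes, 34.0% as higher and 30.8% as lower in HFHG. A share of 8 in 10 therefore stands against a background in which most genes moved. The 4 values of HFHG and the 4 of LG did not overlap for the 8 called members, as for 59.2% of all tested genes. The changes were small. The largest fold was 1.37 (Ly96) and the smallest among the called members 1.09 (Myd88), and no member passed a 2-fold change, which 5.33% of all tested genes did with an unadjusted p below 0.05. The median log2 fold change of the members was -0.20, beside 0.02 over all tested genes. The median size of the change, without its sign, was 0.29 for the members and 0.25 for all tested genes. Since these are whole cultures, fewer cells of a type and less RNA per cell cannot be told apart.

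**Figure D1:**
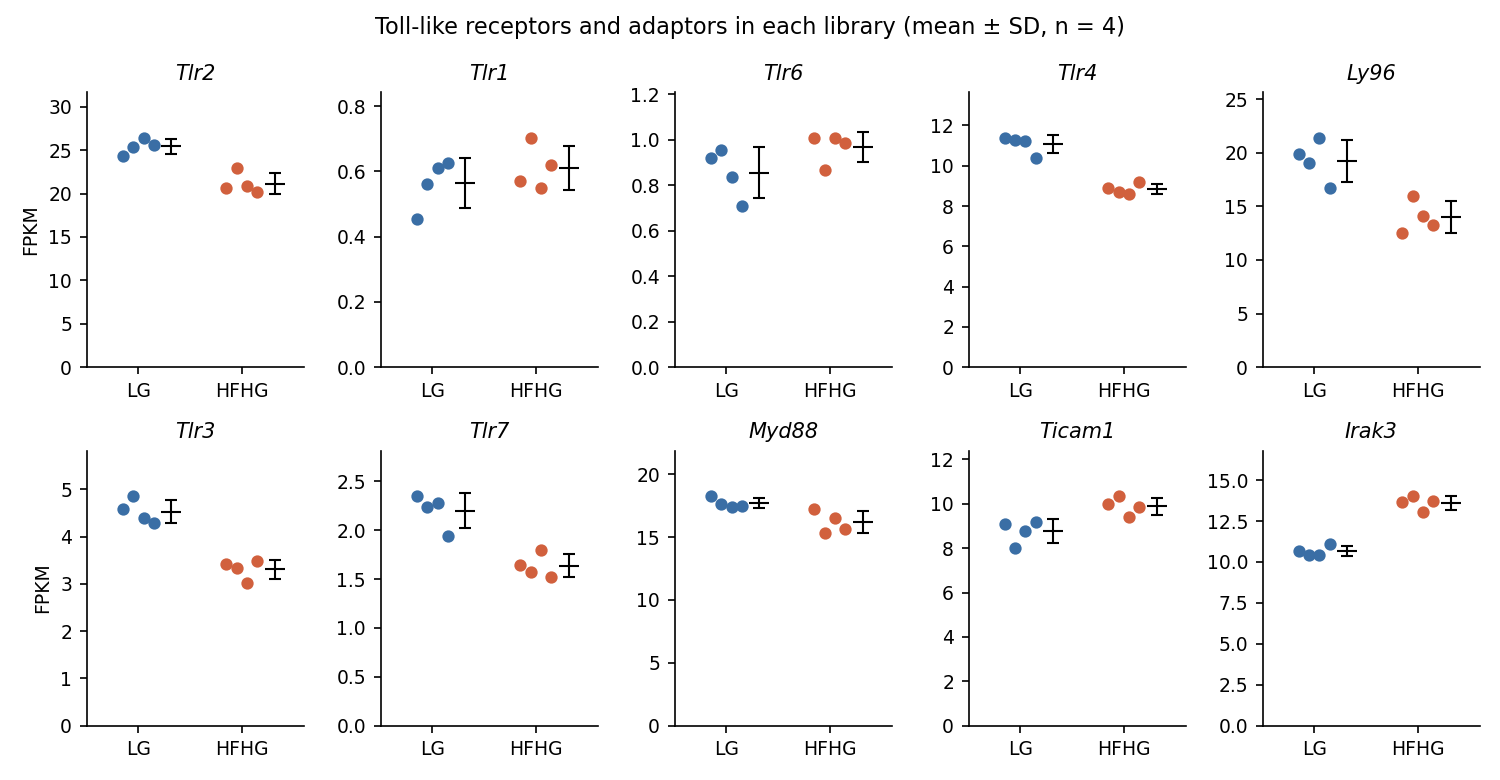
FPKM of the 10 genes (vertical axes, each starting at 0) in the 4 LG libraries (blue) and the 4 HFHG libraries (orange), with each point a library and the bars the mean ± SD. Ly96, Tlr4, Tlr2, Tlr3, Tlr7 and Myd88 lie lower in every HFHG library, Irak3 and Ticam1 lie higher, and the points of Tlr1 and Tlr6 overlap.

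The 5′ flanks of the Tlr2, Irak3 and Ticam1 genes are shown for the receptor with the highest level and for the 2 members that rose. They are the parts without an annotated exon of the 250 bases before a RefSeq transcript start (GRCm38.p6), written in the direction of the gene, and all 3 genes lie on the minus strand. Capitals mark the matches on either strand to 5 motifs, which were the NF-kB consensus, TGANTCA (AP-1), GAAANNGAA (an interferon response type), GAGGAAG (an ETS type) and CACGTG (an E-box).
Tlr2, chr3:83841768-83841858, ending 160 bases before the start: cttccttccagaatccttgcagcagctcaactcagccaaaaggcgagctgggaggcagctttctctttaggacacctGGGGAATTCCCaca
Irak3, chr10:120202196-120202380, ending 66 bases before the start: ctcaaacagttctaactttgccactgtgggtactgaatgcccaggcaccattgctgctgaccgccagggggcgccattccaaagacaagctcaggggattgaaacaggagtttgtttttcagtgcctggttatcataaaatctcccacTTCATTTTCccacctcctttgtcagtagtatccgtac
Ticam1, chr17:56276787-56277017, ending 20 bases before the start: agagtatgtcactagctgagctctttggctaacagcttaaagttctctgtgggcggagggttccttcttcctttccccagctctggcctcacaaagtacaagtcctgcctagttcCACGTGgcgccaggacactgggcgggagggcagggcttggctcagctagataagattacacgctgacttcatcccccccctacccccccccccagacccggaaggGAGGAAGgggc

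In the Tlr2 stretch the capitals cover overlapping matches to the NF-kB consensus, a motif found in 7.25% of the 32851 RefSeq promoters of 250 bases. The printed stretches are shorter, at 91 bases for Tlr2, 185 for Irak3 and 231 for Ticam1. The Irak3 match is to GAAANNGAA on the strand opposite to the gene, and 7.13% of all promoters hold that motif. The Ticam1 stretch holds CACGTG, found in 6.02% of promoters, and GAGGAAG, found in 10.6%. These matches are descriptions of letters, and binding was not measured. The RefSeq promoter table had entries for 7 of the 10 members, not for Tlr4, Ly96 and Tlr7. None of the entries of these 7 genes held TGANTCA, which 6.75% of all promoters hold.

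TLR4 and MD-2 together form the receptor for lipopolysaccharide. Tlr4 (NCBI gene 21898, chr4:66827584-66930284, plus strand, GRCm38) was read at 8.90, 8.70, 8.58 and 9.17 FPKM in HFHG replicates 1 to 4 and at 11.4, 11.3, 11.2 and 10.4 in LG replicates 1 to 4. The highest HFHG library lay below the lowest LG library. The mean fell from 11.1 ± 0.455 to 8.84 ± 0.258 FPKM, where the error is the SD of 4 libraries, here and throughout. The log2 fold change was -0.32 ± 0.05 (SE), with an adjusted p of 4.47e-05 in limma. The 95% confidence interval ran from -0.42 to -0.22, and the call held under all 18 alternatives.

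Ly96 (NCBI gene 17087, chr1:16688051-16709611, plus strand) encodes MD-2, the secreted protein that seats the lipid part of lipopolysaccharide on TLR4. Its values were 12.5, 16.0, 14.1 and 13.3 FPKM in HFHG and 19.9, 19.0, 21.4 and 16.7 in LG. The groups did not overlap, but HFHG replicate 2 at 16.0 and LG replicate 4 at 16.7 lay close to each other. Ly96 had the largest change of the members, from 19.2 ± 1.97 to 14.0 ± 1.49 FPKM, which is -0.46 ± 0.08 on the log2 scale (adjusted p = 2.90e-04, limma). LG replicate 4, the library set apart on the second component, had the lowest LG value of Ly96, Tlr4, Tlr3, Tlr7 and Tlr6. Without it the log2 fold changes were -0.52 for Ly96, -0.35 for Tlr4, -0.47 for Tlr3 and -0.46 for Tlr7, each larger in size than with it. The ratio of Ly96 to Tlr4 within a library overlapped between the groups, at 1.59 ± 0.198 in HFHG and 1.74 ± 0.129 in LG.

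Tlr2 (NCBI gene 24088, chr3:83836272-83841767, minus strand), the common chain of the lipopeptide receptors, had the highest level of the members in both groups. It was read at 20.7, 22.9, 20.9 and 20.2 FPKM in HFHG and at 24.3, 25.4, 26.4 and 25.6 in LG. All HFHG libraries lay below all LG libraries. The mean fell from 25.4 ± 0.888 to 21.2 ± 1.22 FPKM, or -0.27 ± 0.04 on the log2 scale (adjusted p = 1.73e-04, limma).

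The partners of TLR2 were expressed at far lower levels and did not pass the test. Tlr1 (NCBI gene 21897, chr5:64924679-64933563, minus strand) was read at 0.572, 0.703, 0.549 and 0.620 FPKM in HFHG and at 0.455, 0.562, 0.612 and 0.627 in LG. These values rest on 49 to 78 reads and overlap, and the 95% interval of the log2 fold change of 0.10 ran from -0.20 to 0.40 (adjusted p = 0.541, limma). Under quantile normalization the sign of the Tlr1 difference turned, to -0.10 with an adjusted p of 0.542. Tlr6 (NCBI gene 21899, chr5:64952031-64960097, minus strand) lies next to Tlr1 and was read at 1.01, 0.868, 1.01 and 0.987 FPKM in HFHG and at 0.921, 0.956, 0.835 and 0.707 in LG. The groups overlapped through HFHG replicate 2, and the log2 fold change of 0.17 had an interval from -0.093 to 0.42 (adjusted p = 0.237, limma). Without LG replicate 4 it was 0.09. The ratio of Tlr2 to the sum of its partners was 13.4 ± 0.866 in HFHG and 18.0 ± 1.05 in LG, with ranges of 12.5 to 14.6 and 16.7 to 19.2 that did not overlap.

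The endosomal receptors were both lower in HFHG. Tlr3 (NCBI gene 142980, chr8:45395665-45411080, minus strand), the receptor for double-stranded RNA, was read at 3.41, 3.33, 3.01 and 3.48 FPKM in HFHG and at 4.59, 4.85, 4.39 and 4.29 in LG. The groups were well apart, and the mean fell from 4.53 ± 0.248 to 3.31 ± 0.206 FPKM, or -0.44 ± 0.07 on the log2 scale (adjusted p = 8.85e-05, limma). An antisense gene, Gm45542, shares 7.32% of the exon bases of Tlr3, and whether the counting used strand is not given in the sources used here, so that part of the reads is uncertain. Tlr7 (NCBI gene 170743, chrX:167304929-167330558, minus strand), the receptor for single-stranded RNA, was read at 1.65, 1.58, 1.80 and 1.53 FPKM in HFHG and at 2.35, 2.24, 2.28 and 1.94 in LG. All HFHG values lay below the lowest LG value, and the log2 fold change was -0.40 ± 0.09 (adjusted p = 0.00159, limma), on 308 to 449 reads per library.

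The adaptors moved in opposite directions. Myd88 (NCBI gene 17874, chr9:119335934-119341411, minus strand), the adaptor of most Toll-like receptors and of the IL-1 receptor, was read at 17.3, 15.4, 16.5 and 15.7 FPKM in HFHG and at 18.2, 17.6, 17.4 and 17.5 in LG. The groups met almost edge to edge, with HFHG replicate 1 at 17.3 below LG replicate 3 at 17.4. The mean was 17.7 ± 0.382 in LG and 16.2 ± 0.856 in HFHG, a log2 fold change of -0.13 ± 0.04 (adjusted p = 0.0180, limma). This call was lost when the FPKM were rescaled to the same sum (-0.07, adjusted p = 0.179) and without HFHG replicate 2 (adjusted p = 0.0594), HFHG replicate 4 (0.0530) or LG replicate 1 (0.0537). Acaa1a, a peroxisomal thiolase gene on the other strand, shares 11.3% of the exon bases of Myd88, and it was 37.1 ± 0.741 FPKM in HFHG and 36.3 ± 1.70 in LG (log2 0.03, adjusted p = 0.470).

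Ticam1 (NCBI gene 106759, chr17:56269319-56276786, minus strand) encodes TRIF, the adaptor of TLR3 and of the endosomal route of TLR4. It was read at 9.97, 10.3, 9.39 and 9.86 FPKM in HFHG and at 9.09, 8.01, 8.76 and 9.19 in LG. The lowest HFHG library lay just above the highest LG library, and the mean rose from 8.77 ± 0.536 to 9.89 ± 0.388 FPKM, or 0.17 ± 0.05 on the log2 scale (adjusted p = 0.0123, limma). The ratio of Ticam1 to Myd88 within a library was 0.613 ± 0.0482 in HFHG and 0.496 ± 0.0301 in LG, with ranges of 0.570 to 0.673 and 0.454 to 0.526. The ratios were chosen after their values were seen and are given as descriptions, with no test.

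Irak3 (NCBI gene 73914, chr10:120141648-120202130, minus strand), which encodes IRAK-M, an inhibitor of the IRAK kinases known from tolerant macrophages, rose the most of the members. It was read at 13.7, 14.0, 13.0 and 13.7 FPKM in HFHG and at 10.7, 10.5, 10.4 and 11.1 in LG. The gap between the groups was wider than the range of either. The mean rose from 10.7 ± 0.321 to 13.6 ± 0.409 FPKM, a log2 fold change of 0.35 ± 0.04 with an adjusted p of 8.30e-06 in limma, and over all 18 alternatives it lay between 0.33 and 0.41. Tmbim4, which encodes a transmembrane protein and lies on the other strand, shares 5.22% of the exon bases of Irak3 and was also higher in HFHG, at 104 ± 3.03 against 90.1 ± 6.59 FPKM (log2 0.21, adjusted p = 0.00135). Its part in the Irak3 result was not tested.

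**Figure D2:**
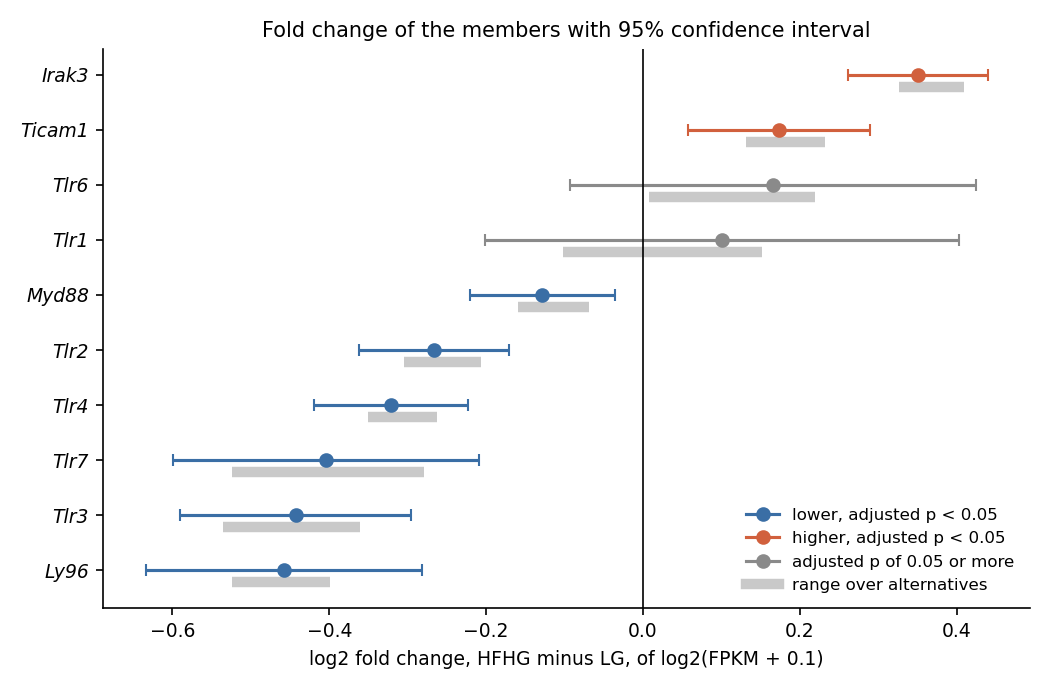
Log2 fold change of each member (horizontal axis, HFHG minus LG of log2(FPKM + 0.1)), with points for the fitted value, thin bars for its 95% confidence interval and grey bars for the range over the alternatives. Irak3 is at 0.35 and Ly96 at -0.46, while the intervals of Tlr6 and Tlr1 cross 0.

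For each of the 8 called members, the 70 ways to divide the libraries into 4 and 4 gave an exact permutation p (two-sided) of 0.0286, the smallest that this number of libraries allows. Groups that do not overlap always give this value, so it only restates the lack of overlap, and it is not adjusted. For Tlr1 the same permutation gave 0.429 and for Tlr6 0.171.

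The order of the levels differed between the media in its upper part. In LG it was Tlr2, Ly96, Myd88, Tlr4, Irak3, Ticam1, Tlr3, Tlr7, Tlr6 and Tlr1, where the ranges of Ly96 and Myd88 and those of Tlr4 and Irak3 overlapped. In HFHG it was Tlr2, Myd88, Ly96, Irak3, Ticam1, Tlr4, Tlr3, Tlr7, Tlr6 and Tlr1, where the ranges of Myd88 and Ly96 and those of Ly96 and Irak3 overlapped. Tlr4 thus lay above Ticam1 in LG and below it in HFHG, without overlap in either. The ratio of Irak3 to Tlr4 was 1.54 ± 0.0491 in HFHG (range 1.497 to 1.61) and 0.965 ± 0.0692 in LG (0.926 to 1.07).

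**Figure D3:**
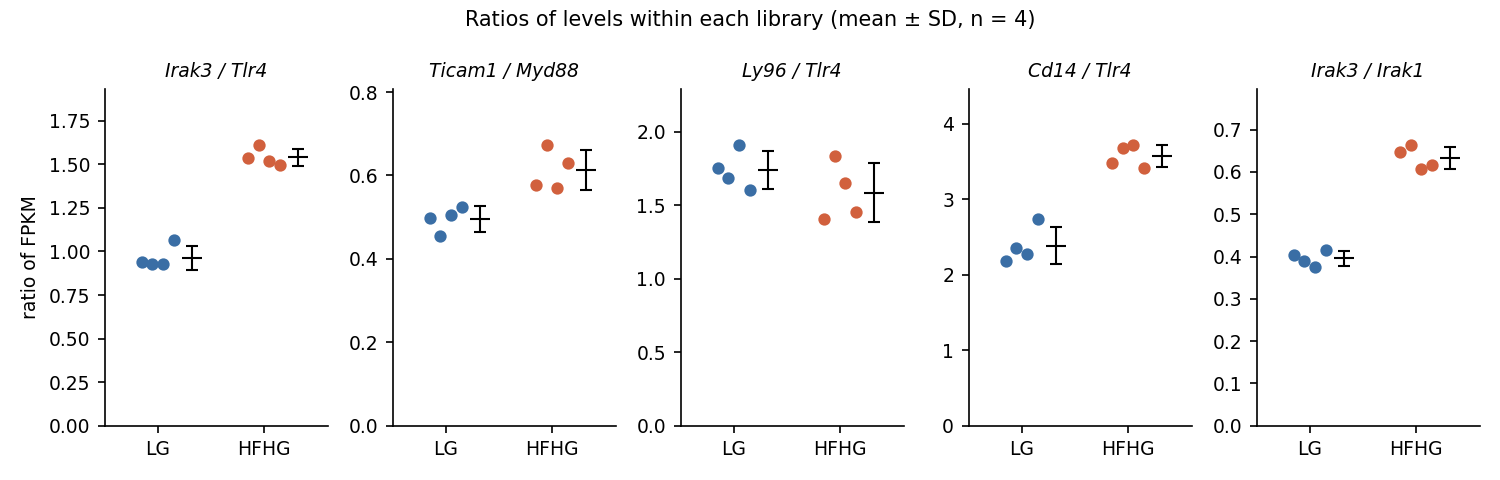
Ratios of FPKM within each library (vertical axes starting at 0), with points for the 4 LG (blue) and 4 HFHG (orange) libraries and bars for the mean ± SD. Irak3 over Tlr4 is 1.54 ± 0.0491 in HFHG and 0.965 ± 0.0692 in LG, Cd14 over Tlr4 is 3.57 ± 0.147 and 2.39 ± 0.245, and Ly96 over Tlr4 overlaps between the groups.

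The other Toll-like receptors did not move as a group. Tlr5, the flagellin receptor, rose from 0.396 ± 0.0800 to 1.03 ± 0.128 FPKM (log2 1.198, adjusted p = 1.34e-05, limma), a larger change than that of any member. Tlr5 met the filter of 0.5 FPKM in all HFHG libraries (0.922 to 1.19), while its LG values ran from 0.313 to 0.505. It thus entered the test through the group where it is high, on 72 to 282 reads per library. Tlr13, an endosomal receptor for bacterial ribosomal RNA, fell from 4.997 ± 0.351 to 3.60 ± 0.369 FPKM (log2 -0.46, adjusted p = 2.66e-04). Tlr8, the neighbour of Tlr7 on the X chromosome, was 2.13 ± 0.134 in HFHG and 1.97 ± 0.214 in LG and did not pass the test (log2 0.11, adjusted p = 0.299). Tlr9 and Tlr11 were below the expression filter, with means of at most 0.115 and 0.00647 FPKM.

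Of 10 co-receptor and trafficking genes, 9 were tested, 4 rose, 4 fell and 1 did not pass. The counts of this list and those below stand beside 64.8% called over all tested genes. Among them Lbp, Cd36 and Cd14, whose proteins hand lipid to TLR4 or TLR2, rose, whereas Tlr4, Ly96 and Tlr2 fell. Lbp, the lipopolysaccharide binding protein, rose from 13.0 ± 0.536 to 29.8 ± 0.888 FPKM (log2 1.19, adjusted p = 5.51e-11). Cd36, the scavenger receptor and fatty acid carrier that works with TLR2 and TLR6, rose from 5.24 ± 0.276 to 11.7 ± 0.487 (log2 1.14, adjusted p = 1.24e-09). Cd14, which delivers lipopolysaccharide to TLR4 and MD-2, rose from 26.3 ± 1.58 to 31.6 ± 0.493 (log2 0.26, adjusted p = 1.09e-04). The ratio of Cd14 to Tlr4 was 3.57 ± 0.147 in HFHG and 2.39 ± 0.245 in LG. Ly86 (MD-1), the relative of MD-2 that partners the receptor homologue CD180, fell from 0.672 ± 0.0806 to 0.279 ± 0.0920 FPKM (log2 -1.05, adjusted p = 2.65e-04). The Ly86 values rest on only 11 to 40 reads per library. Ly86 met the filter of 0.5 FPKM only in LG (0.588 to 0.754), with 0.201 to 0.398 in HFHG. It thus entered the test, and the count of 4 that fell, through the group where it is high.

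Of the 4 genes in this list that fold and move Toll-like receptors, 3 fell and 1 rose. They are named after their values were seen. Hsp90b1, which encodes gp96, a chaperone of the endoplasmic reticulum needed by most Toll-like receptors, fell from 1522 ± 54.7 to 779 ± 11.4 FPKM (log2 -0.96, adjusted p = 8.61e-12, limma). Its partner Cnpy3 fell from 30.9 ± 0.622 to 22.8 ± 0.744 (log2 -0.44), and Unc93b1, which carries the endosomal receptors, fell from 33.7 ± 1.09 to 29.0 ± 0.783 (log2 -0.22). Cnpy4 rose from 17.4 ± 1.86 to 23.96 ± 0.531 (log2 0.47).

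The signalling chain between the adaptors and the transcription factors had 25 genes, all tested, of which 9 rose, 6 fell and 10 did not pass (median log2 0.04). Over all tested genes 64.8% were called, so this count is near the background. The bridging adaptors did not pass the test, with Tirap, which links MyD88 to TLR2 and TLR4, at 3.95 ± 0.253 FPKM in HFHG and 4.09 ± 0.303 in LG (log2 interval -0.21 to 0.11). Ticam2, which links TRIF to TLR4, was 0.547 ± 0.210 and 0.536 ± 0.0985, with a wide interval of -0.55 to 0.48. Of the IRAK kinases next to MyD88, Irak1 and Irak2 fell and Irak4 did not pass. Irak1 fell from 26.9 ± 0.575 to 21.5 ± 0.555 FPKM (log2 -0.32, adjusted p = 2.26e-06), Irak2 from 13.6 ± 0.768 to 9.85 ± 0.376 (log2 -0.46, adjusted p = 4.00e-06), and Irak4 was 3.37 ± 0.186 in HFHG and 3.56 ± 0.130 in LG (adjusted p = 0.297). Traf6, the ubiquitin ligase after the IRAK kinases, fell by 0.20 on the log2 scale (adjusted p = 0.00866). The ratio of the inhibitory Irak3 to Irak1 was 0.633 ± 0.0263 in HFHG and 0.396 ± 0.0179 in LG, without overlap.

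Map3k7, which encodes the kinase TAK1 that TRAF6 activates, rose from 14.9 ± 0.660 to 22.2 ± 0.537 FPKM (log2 0.58, adjusted p = 5.84e-08, limma). Peli2 and Peli3, ubiquitin ligases of the Pellino family that act on IRAK1, also rose, by log2 0.57 and 0.54. Of 15 negative regulators besides Irak3, 13 were tested, and 6 rose, 3 fell and 4 did not pass. This too is near the 64.8% called over all tested genes. Zc3h12a (Regnase-1), an RNase that degrades cytokine mRNA, rose from 30.2 ± 1.08 to 44.4 ± 1.93 FPKM (log2 0.56). Tollip, which holds IRAK1 inactive, fell from 42.9 ± 0.814 to 33.4 ± 0.813 (log2 -0.36), and Nrros fell from 1.41 ± 0.138 to 1.09 ± 0.0992 (log2 -0.35, adjusted p = 0.0109). The median of this list, -0.02, was 0.04 when the FPKM were rescaled to the same sum.

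Of 15 genes known as outputs of the MyD88 and NF-kB route, 13 were tested, 10 rose, 2 fell and 1 did not pass, with a median log2 fold change of 0.77. Of all tested genes, 34.0% were called higher and 30.8% lower. Il1b, the precursor of interleukin-1 beta, rose from 0.459 ± 0.0795 to 1.73 ± 0.354 FPKM (log2 1.70, adjusted p = 6.26e-07), on only 19 to 110 reads per library. Nfkbia, the inhibitor that NF-kB itself induces, rose from 46.4 ± 1.61 to 89.3 ± 1.61 (log2 0.94, adjusted p = 3.65e-11), and the adhesion molecule Vcam1 from 57.8 ± 0.796 to 105 ± 1.39 (log2 0.86). The genes that fell, Tnf (log2 -0.62) and Ccl2 (log2 -0.18), and the gene that did not pass, Cxcl2 (log2 -0.03), are named because they are the exceptions. Many other receptors also induce these genes, and which receptor acted was not measured.

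Of 10 outputs of the TRIF and interferon route, 8 were tested, and 4 rose, 2 fell and 2 did not pass, beside 64.8% called over all tested genes. The median log2 fold change was -0.00, and it changed sign between scalings. Oasl1, an interferon-induced inhibitor of Irf7 translation, fell from 3.12 ± 0.0696 to 2.25 ± 0.228 FPKM (log2 -0.46). Ifit3 rose from 31.0 ± 0.480 to 40.8 ± 1.73 (log2 0.39), and the chemokine gene Cxcl10 from 1.99 ± 0.0955 to 2.48 ± 0.444 with overlapping libraries (log2 0.29, adjusted p = 0.0425, limma).

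**Figure D4:**
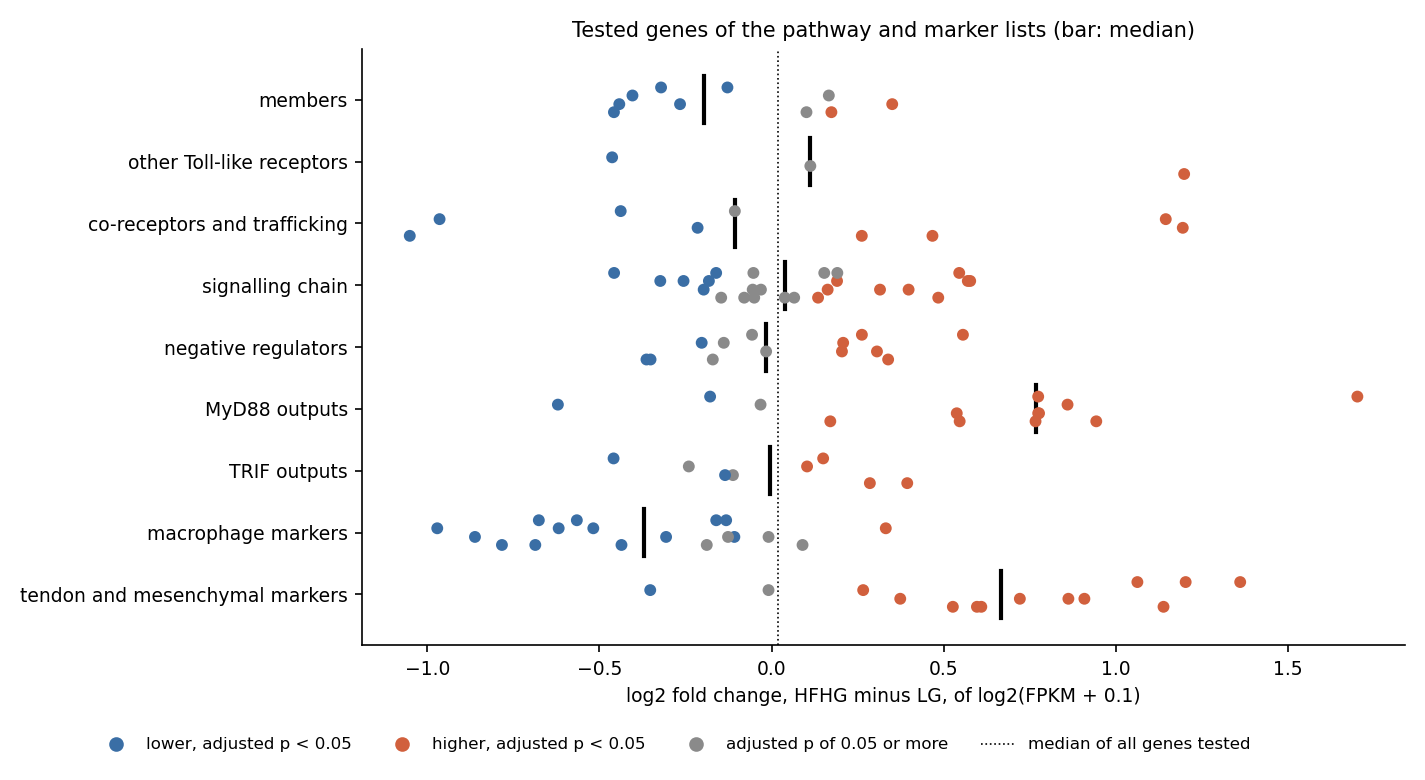
Log2 fold change (horizontal axis, HFHG minus LG of log2(FPKM + 0.1)) of every tested gene in each list, with points coloured by the call, black bars at list medians and a dotted line at the median of all tested genes, 0.02. The MyD88 outputs lie mostly to the right (median 0.77), the members mostly to the left (median -0.20), and the macrophage markers further to the left (median -0.37).

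Macrophages are known to express these receptors, and macrophage markers were present in the cultures and lower in HFHG, as were most of the receptors. Of the 18 tested macrophage markers 13 fell, 1 rose (Aif1, which no longer passed under median-ratio scaling or quantile normalization) and 4 did not pass, with log2 fold changes from -0.97 to 0.33. Among all tested genes 30.8% were called lower and 34.0% higher. Without Lyz2 their summed FPKM was 345 to 355 in HFHG and 480 to 500 in LG. Among the defining markers, Lyz2 fell from 1765 ± 32.6 to 1637 ± 19.4 FPKM (log2 -0.11), Cd68 from 42.5 ± 2.56 to 34.4 ± 2.84 (log2 -0.31), and Csf1r from 8.69 ± 0.306 to 7.92 ± 0.356 (log2 -0.13, adjusted p = 0.0314, limma). Ptprc (CD45) was 2.26 ± 0.167 in LG and 1.98 ± 0.192 in HFHG and did not pass (adjusted p = 0.0886), and Cd163 and Cx3cr1 were below the filter. The wide range of these markers, -0.97 to 0.33, holds the log2 fold changes of all members but Irak3 (0.35), whether they fell or not. Its upper end is Aif1, and 16 of the 18 markers lay below 0. The median size of the change over all tested genes was 0.25, so lying in this range does not single out the members. The part of the markers in the result was not tested. Of the 14 tendon and mesenchymal markers, 12 rose, among them Col1a1 (log2 1.36) and Tnmd (log2 0.86, adjusted p = 0.0164). Tnmd rests on only 10 to 59 reads per library. Scx also rose (log2 0.61, adjusted p = 0.0138, limma), with libraries that overlapped between the groups. The study's own qPCR went the other way, with lower Scx and Tnmd in HFHG medium, after a culture time that it does not state. The study says that its mRNA changes were also seen in protein, and TNMD was among the proteins shown. The tendon transcription factor Mkx fell (log2 -0.35, adjusted p = 7.49e-04, limma), whereas the study's qPCR found no significant change of it. The matrix proteoglycan gene Dcn did not pass (log2 -0.01, adjusted p = 0.768).

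The genes whose pattern over the 8 libraries was most like that of Irak3 were Tssc4, Gpr153 and Tcta, with Pearson's r of 0.9957, 0.9957 and 0.9949 on the log2(FPKM + 0.1) scale. Those most like Ly96 were Erc2, Pip5k1a and Ubxn2b, with r of 0.9804, 0.9756 and 0.9732. A difference between the groups alone gives a high r here, and 1163 genes had an r above 0.95 with Irak3 and 33 with Ly96.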

How the data were processed

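The data were 8 mRNA libraries of mouse TSCs, 4 in HFHG medium, whose glucose was 25.5 mM with palmitic acid at 300 µM, and 4 in LG medium, whose glucose was 5.5 mM. The authors deposited FPKM for 19301 genes in each library, without pooling. The submitters' processing notes name HISAT2 2.1.0 and mm10. The counting program, its strand setting and the annotation are not given in the sources used here, although the library kit was stranded, so genes that overlap on opposite strands are uncertain. Annotation columns of the table were not used, and 0 columns of per-sample values were left out.

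The 11710 genes that reached an FPKM of 0.5 in 4 or more libraries entered a test on log2(FPKM + 0.1) with limma 3.58.1 in R 4.3.3 (lmFit, eBayes with trend), HFHG minus LG, with Benjamini-Hochberg adjustment over all of them and a threshold of 0.05. Fold changes on this scale understate the change of genes with low values. Members were also tested by exact two-sided permutation of the libraries (70 arrangements). Whole reads were recovered for 19301 of 19301 genes (100%), and a limma-voom fit on them was among the alternatives, beside other pseudocounts, filters and scalings, a replicate block, a robust eBayes and each library left out. On simulated data the fit found 197 of 198 changed genes among 11665 (99.5%) and called 11 unchanged genes. In the measured libraries far more genes, 64.8% of those tested, were called. The share that the fit finds at fold changes as small as those of the members was not tested. Same-numbered libraries did not deviate together. Their correlations lay between -0.0736 and -0.00558.

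Gene positions are from GENCODE M21 (GRCm38). The members and the gene lists were chosen with earlier results of these data known. Named genes are the members, the 3 largest called changes of each pathway list, the other receptors, Cd36, Cd14, Tirap, Ticam2, Irak1, Irak2, Irak4 and Traf6, the defining markers, and the 3 genes most correlated with the members that changed most in each direction. Hsp90b1, Cnpy3, Cnpy4, Unc93b1, Tnf, Ccl2, Cxcl2, Aif1, Tek, Mkx and Dcn, the overlapping genes and the ratios were chosen after their values were seen. The study's methods call the 4 libraries of a group biological replicates, and p-values measure the spread between them.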

Additional observations from a re-analysis of the deposited data

Results flagged for a closer look

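In 95 groups of 4 libraries the highest or lowest value was compared with the other 3, and 3 values stood apart (gap over range above Dixon's 95% critical value), where chance gives about 1 in 20 groups. Tlr6 in HFHG replicate 2 was 0.868 FPKM, with the other HFHG libraries between 0.987 and 1.01. Tollip in LG replicate 2 was 41.7 FPKM, with the others between 43.3 and 43.4. Il1b in HFHG replicate 3 was 2.25 FPKM, with the others between 1.501 and 1.599.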

How the results depend on the processing

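Over 178 values of the members under 18 alternatives, 173 kept their direction and their side of the threshold. The exceptions were Tlr1, whose log2 fold change became -0.10 with quantile normalization, and Myd88 in 4 fits, with log2 fold changes of -0.07 at equal sums and -0.11 to -0.10 without HFHG replicate 2, HFHG replicate 4 or LG replicate 1. Quantile normalization also left 1 MyD88 output lower in place of 2. The signalling chain, with 9 genes higher and 6 lower, had 12 and 4 at equal sums and 9 and 8 with quantile normalization, and the TRIF outputs, with 4 and 2, had 3 and 2 with median-ratio scaling and 3 and 3 with quantile normalization. Over all genes, 3983 higher and 3609 lower became 4682 and 3002 at equal sums, 3778 and 3792 with median-ratio scaling and 3606 and 4024 with quantile normalization, so the balance of the background turned. The cause was not tested. With the replicate number as a block, 8 members were still called, 6 lower and 2 higher, and 3841 genes were called higher and 3501 lower in all. A minimum of 1 FPKM removed Tlr1 and Tlr6, which therefore gave no value there. The scalings moved the median of all tested genes to between -0.02 and 0.07 on the log2 scale. The values of Tlr1 rest on 49 to 78 reads per library, the fewest of the members.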
